A study of Mus musculus with 4 samples.

Results

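Angiopoietin ligands, their Tie receptors and endothelial junction genes were followed in the tibialis anterior, a leg muscle made mostly of fast fibres. These were the ligands Angpt1 and Angpt2, the receptors Tek and Tie1, the junction and adhesion genes Pecam1, Cdh5, Cldn5, Icam2 and Esam, and the sialomucin Emcn. The 10 genes were chosen by name: every probe set whose only gene symbol was one of them was taken, which gave 13 of 45101 probe sets and 10 of 18193 genes. Total RNA had been hybridised to 4 Affymetrix Mouse Genome arrays, 1 for each group: MMP-2 null mdx (labelled mdx/MMP-2-/-) at 3 months, mdx at 3 months, MMP-2 null mdx at 1 month and mdx at 1 month, all labelled C57BL/6J. All groups carry the mdx mutation, which removes dystrophin and makes these mice a model of Duchenne muscular dystrophy, and the MMP-2 null mdx mice also lack the gelatinase MMP-2. No array of muscle without the mdx mutation was used here, and the labels do not say whether animals were pooled or whether the MMP-2 deletion was restricted to a cell type.

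With 1 array per group no difference has a replicate check. The words higher and lower describe these arrays, and their small number limits how precise any value can be. Values are MAS5 signals, which are probe set intensities on a linear scale, after quantile scaling of the 4 arrays. Signals under a floor of 17.4 were raised to it, and 12801 genes exceeded the floor in at least 1 array, all 10 of the genes studied here among them. Each gene is given by its brightest probe set, and signals are compared between arrays within a gene, not between genes.

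Quantile scaling makes each difference relative to the array as a whole. The deposited signals had trimmed means of 123.6 in MMP-2 null mdx and 91.3 in mdx at 3 months, and of 98.4 in MMP-2 null mdx and 92.1 in mdx at 1 month. For the targeted gene Mmp2 the signal was 40.9 in MMP-2 null mdx and 805 in mdx at 3 months, and 24.7 in MMP-2 null mdx and 986 in mdx at 1 month. The ratio of 3' to 5' control signals for Actb, which rises as RNA is degraded or labelled incompletely, separated the ages: it was 2.09 in MMP-2 null mdx and 2.36 in mdx at 3 months, against 1.05 in MMP-2 null mdx and 1.19 in mdx at 1 month. That of Gapdh lay between 0.85 and 0.936 in the 4 arrays. The 8 skeletal muscle markers, such as Acta1 and Myh1, had summed signals between 108400 and 110200.

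Angiopoietins are secreted ligands of the receptor tyrosine kinase Tek, also called Tie2, on endothelial cells. Angpt1, made mainly by mural and other cells around the vessel, activates Tek and keeps vessels quiescent and their junctions closed, whereas Angpt2, stored and released by activated endothelium, antagonises Angpt1 in many settings and accompanies vessel remodelling. Tie1 is a receptor without a well-established high-affinity angiopoietin ligand that modulates Tek. Downstream of these signals lie the junctions: Cdh5 is VE-cadherin of the adherens junction, Cldn5 a claudin of the tight junction, Pecam1, Icam2 and Esam are immunoglobulin-family adhesion molecules, and Emcn, endomucin, is a sialomucin of capillary and venous endothelium. Pecam1, Icam2 and Esam are also found on blood platelets or leukocytes.

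RefSeq windows of 250 bases before the gene start (GRCm38.p6) were given for 4 of the 10 genes. Of these genes, Tek, Tie1 and Emcn were lower at 3 months than at 1 month in both genotypes. Cldn5 was lower in MMP-2 null mdx (-0.49) and higher in mdx (0.42). A link between the sequences and these differences was not tested. All 4 windows are shown. Each runs 5′ to 3′ on the strand of its gene, and capitals mark CAGGAA on either strand, a sequence of the kind bound by ETS factors, which regulate many endothelial genes.
Tek, chr4:94739039-94739288, plus strand: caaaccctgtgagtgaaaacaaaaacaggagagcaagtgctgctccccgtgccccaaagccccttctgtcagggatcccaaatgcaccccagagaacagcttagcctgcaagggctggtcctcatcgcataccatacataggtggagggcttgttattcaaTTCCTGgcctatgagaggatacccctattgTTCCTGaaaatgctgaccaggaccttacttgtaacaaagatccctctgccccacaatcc
Tie1, chr4:118489850-118490099, minus strand: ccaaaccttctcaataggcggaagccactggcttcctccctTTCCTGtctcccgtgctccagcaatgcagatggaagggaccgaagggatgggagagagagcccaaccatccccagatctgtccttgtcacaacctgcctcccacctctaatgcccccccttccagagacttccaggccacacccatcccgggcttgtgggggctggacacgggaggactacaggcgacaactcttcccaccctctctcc
Emcn, chr3:137340828-137341077, plus strand: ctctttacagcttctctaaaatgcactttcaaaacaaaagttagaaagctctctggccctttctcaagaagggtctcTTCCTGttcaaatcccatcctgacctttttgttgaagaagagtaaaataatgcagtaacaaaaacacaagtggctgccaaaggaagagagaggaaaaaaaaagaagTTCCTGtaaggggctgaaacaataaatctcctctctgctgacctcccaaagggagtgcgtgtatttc
Cldn5, chr16:18776597-18776846, plus strand: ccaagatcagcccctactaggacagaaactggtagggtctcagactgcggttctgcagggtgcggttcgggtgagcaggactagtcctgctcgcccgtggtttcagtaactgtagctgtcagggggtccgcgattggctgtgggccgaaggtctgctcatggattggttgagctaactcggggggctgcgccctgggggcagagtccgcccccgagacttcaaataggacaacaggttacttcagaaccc

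CAGGAA, always as its reverse complement TTCCTG, occurred 2 times before Tek, 2 times before Emcn and 1 time before Tie1, and these letters were not in the Cldn5 window. Of all 32851 RefSeq windows of this length 25.7% held CAGGAA on either strand. A further ETS-type sequence, CCGGAA, and the forkhead-type sequence TGTTTAC were in none of the 4 windows on either strand. They occurred in 12.0% and 3.17% of all windows. The 3 sequences searched share no whole match with each other, and a match is a description of the letters, not a binding site.

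The ligands were not ordered by age across the 4 arrays, unlike the receptors described next. Angpt2 had a signal of 24.4 in MMP-2 null mdx and 46.7 in mdx at 3 months, and 26.9 in MMP-2 null mdx and 30.2 in mdx at 1 month. The mdx array at 3 months stood above the other 3, which lay close together. Angpt2 was thus 1.91-fold lower in MMP-2 null mdx than in mdx at 3 months (log2 difference -0.94) and 1.12-fold lower at 1 month (-0.17). Between ages, it was 1.54-fold higher at 3 months in mdx (0.63) and 1.11-fold lower at 3 months in MMP-2 null mdx (-0.14). All 4 signals lay near the floor, and a floor at the 60th percentile brought the 3-month genotype difference to -0.63. The other Angpt2 probe set stayed under the floor in the 4 arrays, with a highest signal of 7.47 in mdx at 3 months.

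Angpt1 had a signal of 117.8 in MMP-2 null mdx and 136.6 in mdx at 3 months, and 88.4 in MMP-2 null mdx and 134 in mdx at 1 month. Here the MMP-2 null mdx array at 1 month was the low one, and both mdx arrays were nearly equal. Angpt1 was 1.16-fold lower in MMP-2 null mdx at 3 months (-0.21) and 1.52-fold lower at 1 month (-0.60). It was 1.33-fold higher at 3 months than at 1 month in MMP-2 null mdx (0.41) and 1.02-fold higher in mdx (0.03). Its other probe set lay under the floor in every array, so no fold is given: 0.449 in MMP-2 null mdx and 8.90 in mdx at 3 months, and 0.892 in MMP-2 null mdx and 13.3 in mdx at 1 month.

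Both ligands were lower in MMP-2 null mdx at both ages, but not by like amounts. Relative to Angpt1, Angpt2 was 1.65-fold lower in MMP-2 null mdx than in mdx at 3 months (-0.72) and 1.35-fold higher at 1 month (0.43). From these pairs of signals no ratio of ligand levels can be read, since the probe sets differ.

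**Figure D1:**
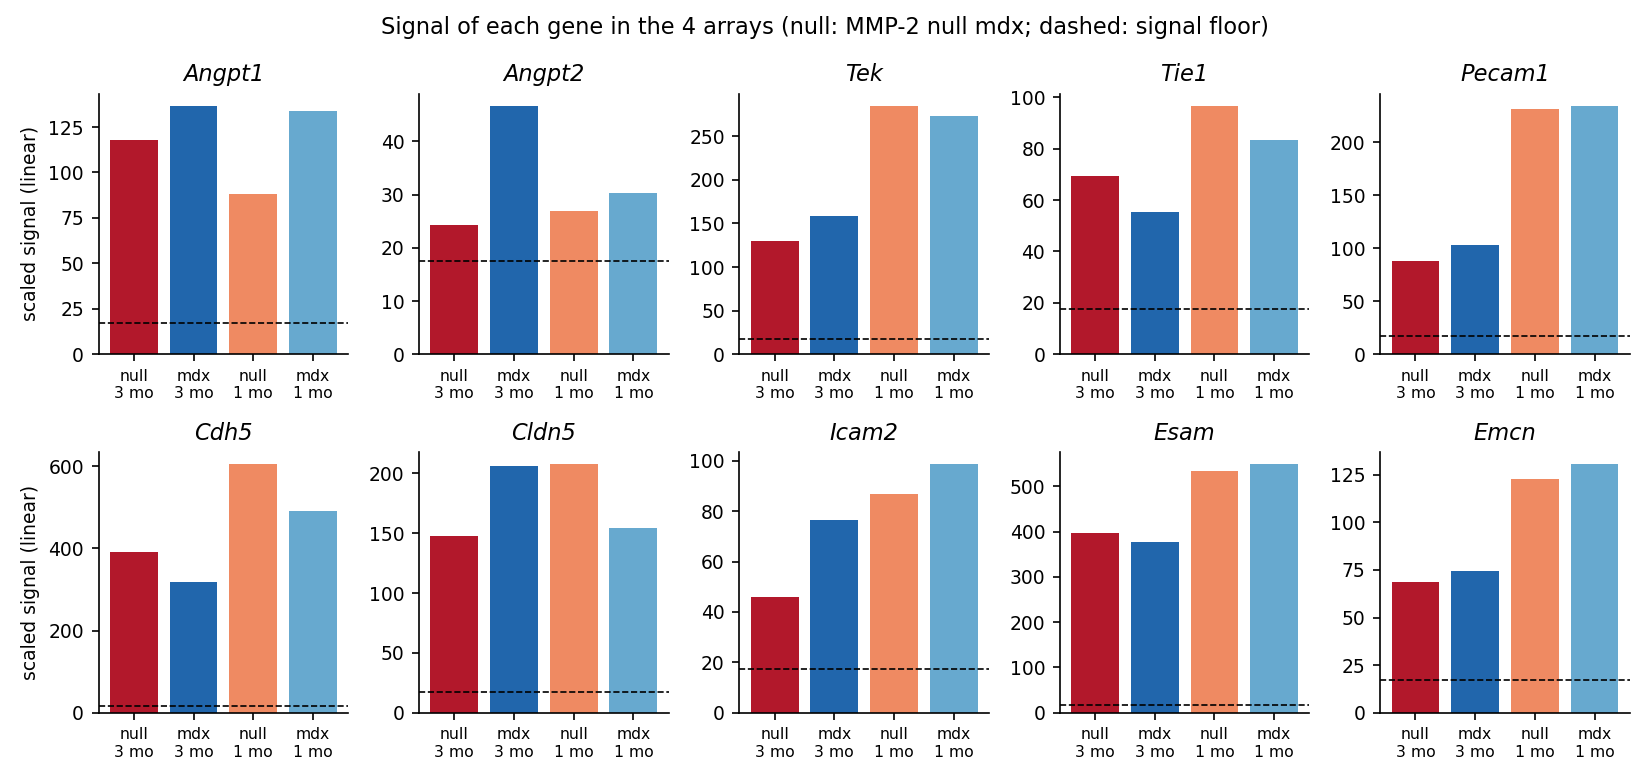
Scaled MAS5 signal (linear axis from 0, each panel with its own range) of the 10 genes in the 4 arrays: MMP-2 null mdx and mdx at 3 months, then MMP-2 null mdx and mdx at 1 month. Each bar is 1 array without an error, and the dashed line is the signal floor of 17.4. Tek, Pecam1 and Emcn show both 3-month bars under both 1-month bars, whereas Angpt2 has a single high bar in mdx at 3 months.

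Both receptors were lower at 3 months than at 1 month in either genotype. Tek had a signal of 130.0 in MMP-2 null mdx and 158.4 in mdx at 3 months, and 284.8 in MMP-2 null mdx and 272.8 in mdx at 1 month. The 3-month arrays did not overlap with the 1-month arrays, and Tek was 2.19-fold lower at 3 months in MMP-2 null mdx (-1.13) and 1.72-fold lower in mdx (-0.78). Between genotypes it was 1.22-fold lower in MMP-2 null mdx at 3 months (-0.29) and 1.04-fold higher at 1 month (0.06).

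Tie1 had a signal of 69.2 in MMP-2 null mdx and 55.3 in mdx at 3 months, and 96.7 in MMP-2 null mdx and 83.5 in mdx at 1 month. The order of the arrays was again by age, with MMP-2 null mdx above mdx within each age. Tie1 was 1.40-fold lower at 3 months in MMP-2 null mdx (-0.48) and 1.51-fold lower in mdx (-0.60). It was 1.25-fold higher in MMP-2 null mdx than in mdx at 3 months (0.32) and 1.16-fold higher at 1 month (0.21). Relative to Tek, Tie1 was 1.53-fold higher in MMP-2 null mdx than in mdx at 3 months (0.61) and 1.11-fold higher at 1 month (0.15).

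Among the junction genes, Pecam1 had the largest difference between ages. Its signal was 87.7 in MMP-2 null mdx and 103.5 in mdx at 3 months, and 231.3 in MMP-2 null mdx and 234.2 in mdx at 1 month. It was 2.64-fold lower at 3 months in MMP-2 null mdx (-1.40) and 2.26-fold lower in mdx (-1.18), and of all 12801 genes 0.328% and 0.828% were lower still in those differences. Between genotypes Pecam1 differed little, with -0.24 at 3 months and -0.02 at 1 month.

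Cdh5 had a signal of 390.4 in MMP-2 null mdx and 318.4 in mdx at 3 months, and 604.2 in MMP-2 null mdx and 492.0 in mdx at 1 month. Its differences were nearly the same in each pair of arrays: 1.55-fold lower at 3 months in MMP-2 null mdx (-0.63) and 1.54-fold lower in mdx (-0.63), and 1.23-fold higher in MMP-2 null mdx than in mdx both at 3 months (0.29) and at 1 month (0.30). The dimmer Cdh5 probe set exceeded the floor in 1 array, MMP-2 null mdx at 1 month (18.97).

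Emcn and Esam differed more between ages than between genotypes. Emcn had a signal of 68.7 in MMP-2 null mdx and 74.4 in mdx at 3 months, and 122.8 in MMP-2 null mdx and 130.4 in mdx at 1 month. It was 1.79-fold lower at 3 months in MMP-2 null mdx (-0.84) and 1.75-fold lower in mdx (-0.81). Esam had a signal of 396.2 in MMP-2 null mdx and 378 in mdx at 3 months, and 533.7 in MMP-2 null mdx and 548.5 in mdx at 1 month. It was 1.35-fold lower at 3 months in MMP-2 null mdx (-0.43) and 1.45-fold lower in mdx (-0.54). Their genotype differences lay between -0.11 and 0.07.

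Icam2 was lowest in MMP-2 null mdx at 3 months. Its signal was 46.1 in MMP-2 null mdx and 76.3 in mdx at 3 months, and 86.7 in MMP-2 null mdx and 98.5 in mdx at 1 month. It was 1.88-fold lower at 3 months in MMP-2 null mdx (-0.91) and 1.29-fold lower in mdx (-0.37). Between genotypes it was 1.66-fold lower in MMP-2 null mdx at 3 months (-0.73) and 1.14-fold lower at 1 month (-0.18).

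Cldn5 lay unlike the other junction genes. Its signal was 147.3 in MMP-2 null mdx and 206.1 in mdx at 3 months, and 207.4 in MMP-2 null mdx and 153.9 in mdx at 1 month, so that the high arrays were of different genotype at each age. It was 1.40-fold lower in MMP-2 null mdx than in mdx at 3 months (-0.49) and 1.35-fold higher at 1 month (0.43). Between ages it was 1.41-fold lower at 3 months in MMP-2 null mdx (-0.49) and 1.34-fold higher in mdx (0.42).

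**Figure D2:**
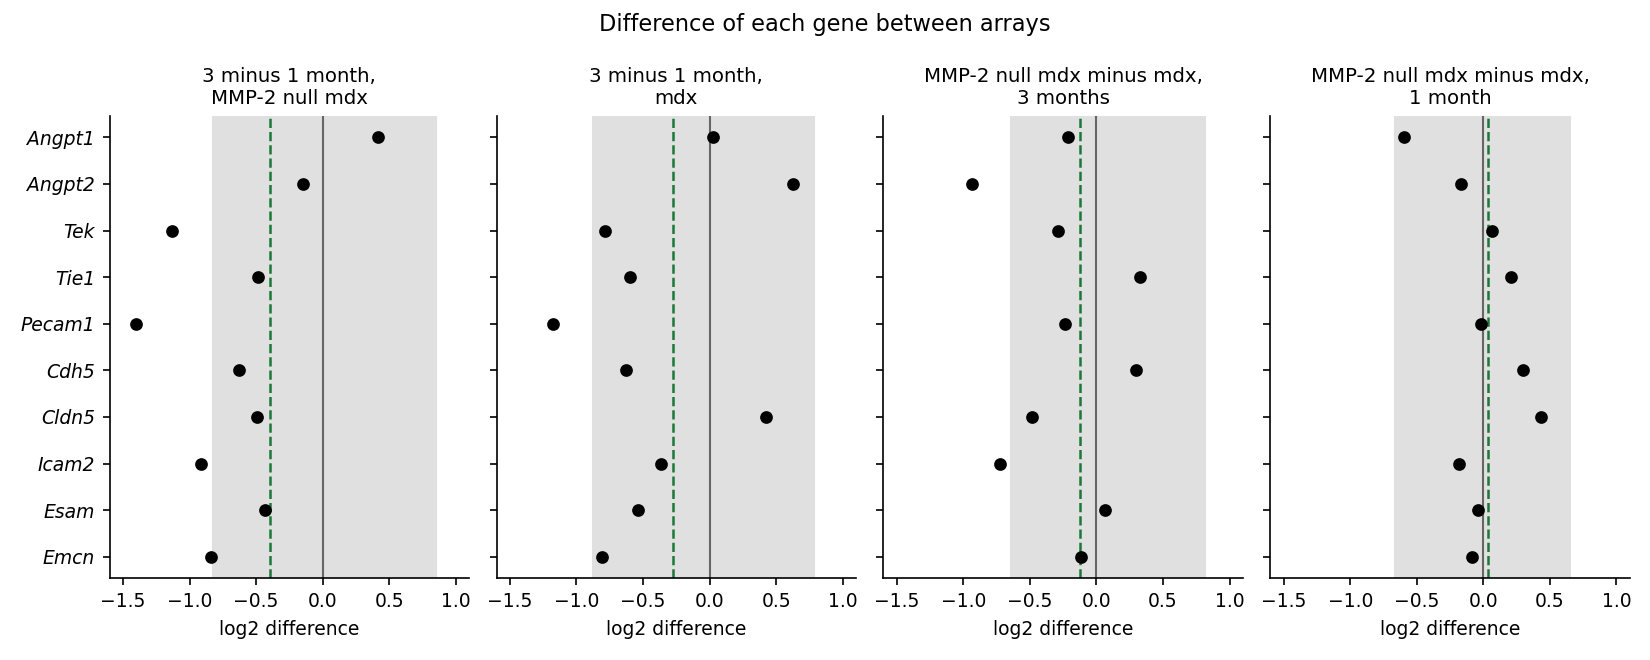
The log2 difference of each of the 10 genes (points, 1 pair of arrays each) between 3 months and 1 month in MMP-2 null mdx and in mdx, and between MMP-2 null mdx and mdx at 3 months and at 1 month. The grey band holds the central 95% of all 12801 genes, the solid line is their median and the dashed line is the median of 25 other endothelial markers. Pecam1 lies below the band in both age differences, Tek, Icam2 and Emcn in that of MMP-2 null mdx, and Angpt2 and Icam2 lie below it in the genotype difference at 3 months.

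Counted over the genes, the age difference was the broadest. In MMP-2 null mdx 9 of 10 genes were lower at 3 months than at 1 month, against 45.7% of all genes, with a median of -0.56 beside 0.00 for all genes. In mdx 7 of 10 were lower, against 47.7% of all genes, with a median of -0.57 beside 0.00. At 1.5-fold, 5 of 10 were lower in MMP-2 null mdx (background 6.70%) and 5 of 10 in mdx (background 7.27%). The genes past 1.5-fold in both genotypes were Tek, Pecam1, Cdh5 and Emcn, 4 of 10, where 1.89% of all genes were, and 7 of 10 lay below 0 in both, where 28.0% of all genes did. Cdh5 fell short of 1.5-fold in MMP-2 null mdx without scaling (-0.26), and in both genotypes with median scaling (-0.32 in MMP-2 null mdx, -0.54 in mdx) or with the mean of its probe sets (-0.38 in MMP-2 null mdx, -0.31 in mdx). At 2-fold, Tek and Pecam1 were lower in MMP-2 null mdx (background 1.22%) and Pecam1 in mdx (background 1.55%). Angpt2, in mdx, was the single gene at least 1.5-fold higher at 3 months (background 5.97%), and fell short of it without scaling, with median scaling, without a floor or with the mean of its probe sets; 0 of 10 were at least 2-fold higher (background 0.976%). In MMP-2 null mdx 0 of 10 were at least 1.5-fold higher (background 7.41%) and 0 of 10 at least 2-fold (background 1.47%).

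The 3' to 5' ratio of Actb stood higher in both 3-month arrays, and its part in these age differences was not tested. In whole muscle, fewer endothelial cells and less RNA per cell cannot be told apart. Normal growth between the ages cannot be told apart from a course of the dystrophy either.

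Tek and Pecam1 were set beside other endothelial markers. Of 25 such markers, none was among the 10 genes. At 3 months 19 were lower in MMP-2 null mdx, against 45.7% of all genes, with a median of -0.39. In mdx 22 were lower, against 47.7% of all genes, with a median of -0.28. The lowest values of the 25 were -0.95 in MMP-2 null mdx and -0.86 in mdx. Pecam1 lay below the lowest in both genotypes and Tek in MMP-2 null mdx. Relative to the marker median, Pecam1 was at -1.01 in MMP-2 null mdx and -0.90 in mdx, whereas Esam was at -0.04 in MMP-2 null mdx and -0.26 in mdx, and Tie1 at -0.09 in MMP-2 null mdx and -0.32 in mdx. The summed signal of the 25 markers was 7905 in MMP-2 null mdx and 7862 in mdx at 3 months, and 9261 in MMP-2 null mdx and 9130 in mdx at 1 month. All 25 exceeded the floor in at least 1 array. Markers of other cells were also lower at 3 months in mdx, where 47.7% of all genes were. These were 7 of 8 fibroblast markers, with a median of -0.53, and 10 of 12 leukocyte markers, with a median of -0.41. Of the fibroblast markers 4 were past 1.5-fold (background 7.27%). In MMP-2 null mdx, where 45.7% of all genes were lower, the fibroblast median was -0.21, with 6 of 8 lower. All 12 leukocyte markers were higher there, with a median of 0.53. Col1a1, a fibrillar collagen chain, had a log2 difference of -0.59 in MMP-2 null mdx and -1.25 in mdx. The part of these cells in the age differences of the 10 genes was not tested.

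Genotype differences were smaller and mixed in direction. At 3 months 7 of 10 genes were lower in MMP-2 null mdx, against 48.1% of all genes, and their median was -0.23 beside 0.00 for all genes. Angpt2 and Icam2 were at least 1.5-fold lower (2 of 10, background 3.33%). Angpt2 fell short of this with the mean of its probe sets (-0.47) and without scaling (-0.49), and Icam2 without scaling (-0.28). At 3 months 0 of 10 were at least 1.5-fold higher (background 6.12%). At 1 month 6 of 10 were lower, against 48.3% of all genes, with a median of -0.03. Angpt1 was the single gene at least 1.5-fold lower (background 3.56%), just past the threshold and short of it without scaling, without a floor or with the mean of its probe sets. At that age 0 of 10 were at least 1.5-fold higher (background 3.52%). No gene reached 2-fold between genotypes, where 0.422% of all genes were lower and 1.18% higher at 3 months, and 0.578% lower and 0.570% higher at 1 month. Without scaling, the median of all genes at 3 months moved by 0.41 and that of the 10 genes was 0.24, still below all genes. Angpt2, Icam2 and Cldn5 were then still lower in MMP-2 null mdx at 3 months (-0.49, -0.28 and -0.02), and the other 7 genes were higher.

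At 3 months, after quantile scaling, the medians of endothelial and of leukocyte markers lay on opposite sides of 0. Without scaling the median of all genes there was 0.41, and the marker lists were not recounted, so these sides hold for scaled signals only. The 25 other endothelial markers had a median of -0.12 in MMP-2 null mdx minus mdx, with values from -0.44 to 0.96. Of the 25, 18 were lower, against 48.1% of all genes. Angpt2, Icam2 and Cldn5 lay below the lowest of them. The other 7 of the 25 were higher, 2 of them at least 1.5-fold (background 6.12%). These 2 were Thbd, thrombomodulin, 1.95-fold higher (764.9 in MMP-2 null mdx, 392.4 in mdx), and the ETS factor Fli1, 1.57-fold higher (474.2 in MMP-2 null mdx, 302.4 in mdx). Both are also expressed in blood cells, and which cells gave their signals was not tested. Cd34 was 1.35-fold higher (651.8 in MMP-2 null mdx, 483.0 in mdx). For Fli1, 1 other probe set lay the opposite way. All 12 leukocyte markers were higher, with a median of 0.69 and summed signals of 9878 in MMP-2 null mdx and 6302 in mdx at 3 months, and 8027 in MMP-2 null mdx and 8885 in mdx at 1 month. Fcer1g, an Fc receptor subunit, was 2.02-fold higher and Cd53 1.72-fold higher. Of 7 platelet markers 5 were measured, with a median of 0.61, among them Pf4, a platelet chemokine also made by macrophages, 1.91-fold higher (948.4 in MMP-2 null mdx, 497.8 in mdx). Of the 5, 4 were higher in MMP-2 null mdx, 3 of them at least 1.5-fold (background 6.12%), and 0 lower. The other 2 platelet markers, Gp9 and Gp5, were at the floor in the 4 arrays. Pecam1, Icam2 and Esam, which such cells share with endothelium, had genotype differences of -0.24, -0.73 and 0.07 in the same arrays. The part of infiltrating cells in the differences of the 10 genes was not tested.

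**Figure D3:**
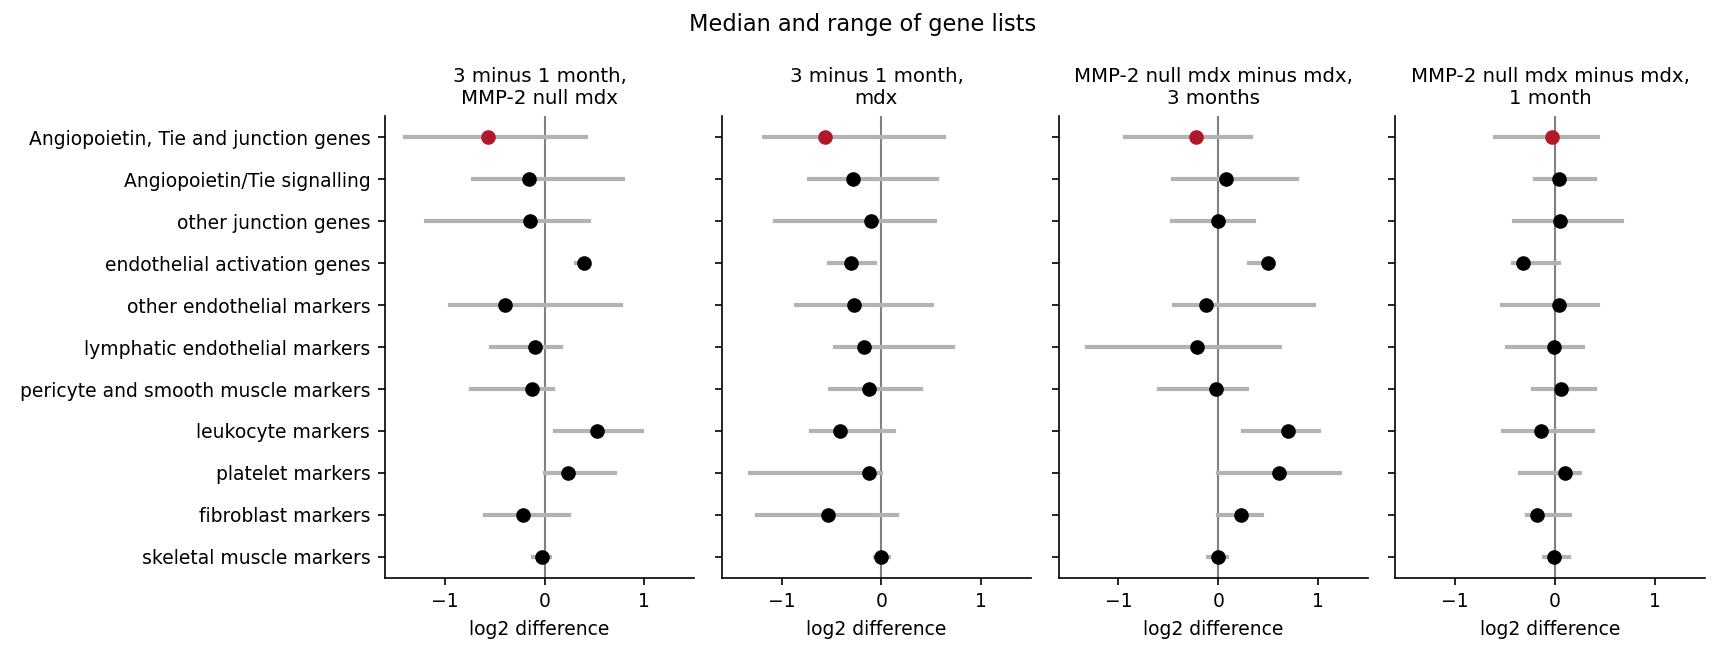
The median (point) and the lowest to highest log2 difference (line) of the 10 genes and of 10 gene lists, in the same 4 differences between arrays. The 10 genes have the lowest median of the lists shown in both age differences, in mdx close to that of the fibroblast markers (-0.57 and -0.53). The leukocyte markers and the 3 measured endothelial activation genes lie wholly above 0 in the genotype difference at 3 months and in the age difference of MMP-2 null mdx.

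Other genes of the angiopoietin pathway were described as a list. Of 19 listed, 16 exceeded the floor. Angpt4, a further ligand, and Grb7 were at the floor in the 4 arrays and Pak1 had no single-gene probe set. The 16 had a median of 0.08 between genotypes at 3 months and 0.04 at 1 month, and of -0.15 between ages in MMP-2 null mdx and -0.28 in mdx. Ptprb, a phosphatase that acts on Tek, had a signal of 321.5 in MMP-2 null mdx and 382.3 in mdx at 3 months, and 525.9 in MMP-2 null mdx and 499.1 in mdx at 1 month. Like Tek it was lower at 3 months, by a log2 difference of -0.71 in MMP-2 null mdx and -0.38 in mdx. Foxo1, a transcription factor restrained by Tek signalling and an activator of Angpt2, was 1.09-fold lower in MMP-2 null mdx at 3 months (-0.12), where its 2 other probe sets lay the opposite way, and 1.32-fold higher at 1 month (0.40). At 3 months 11 of the 16 were higher in MMP-2 null mdx and 5 lower, where 48.1% of all genes were lower. Of the 16, 1 was at least 1.5-fold higher (background 6.12%) and 0 at least 1.5-fold lower (background 3.33%), which is near the share of all genes. The 1 was Tnip2, which binds the Tek kinase, at least 1.73-fold higher (30.1 in MMP-2 null mdx, 12.6 in mdx, under the floor). Its signals lay near the floor in the 4 arrays. It was named after its values were seen. The adaptor Grb14 was 1.36-fold lower at 3 months (-0.44) and the kinase subunit Pik3ca 1.37-fold lower (-0.45), with 1 other probe set of Pik3ca the opposite way.

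Of 26 further junction genes 22 were measured, and their median was 0.00 between genotypes at 3 months and 0.05 at 1 month. Between ages it was -0.15 in MMP-2 null mdx and -0.11 in mdx. In MMP-2 null mdx 6 of the 22 were at least 1.5-fold lower at 3 months (background 6.70%). Of these, 3 were at least 2-fold lower (background 1.22%). In mdx the counts were 3 (background 7.27%) and 1 (background 1.55%), and 0 were 1.5-fold higher in either genotype. The age differences of Gja4 and Jam3 were -1.19 and -1.05 in MMP-2 null mdx, and -0.23 and -0.40 in mdx. Gja4, a connexin of arterial endothelium, lay on the same sides of 0 as Cldn5 between genotypes: it was 1.22-fold lower in MMP-2 null mdx at 3 months (57.5 in MMP-2 null mdx, 70.4 in mdx) and 1.59-fold higher at 1 month (131.5 in MMP-2 null mdx, 82.5 in mdx). Jam3, a junctional adhesion molecule, was 1.37-fold lower in MMP-2 null mdx at 3 months (47.7 in MMP-2 null mdx, 65.5 in mdx) and 1.14-fold higher at 1 month (98.8 in MMP-2 null mdx, 86.3 in mdx). Afdn, which links nectins to actin, was 1.33-fold lower at 3 months and 1.12-fold higher at 1 month. Gja1, the connexin of many cell types, lay the other way, 1.29-fold higher at 3 months and 1.33-fold lower at 1 month, with other probe sets on the opposite side. Ocln and Cgn of epithelial tight junctions and Gja5 were at the floor in the 4 arrays.

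Endothelial activation genes, 3 of 4 measured, had a median of 0.50 between genotypes at 3 months and -0.32 at 1 month. Their median between ages was 0.40 in MMP-2 null mdx, with all 3 higher at 3 months, and -0.31 in mdx, with all 3 lower. Icam1, which binds leukocytes, had a signal of 88.7 in MMP-2 null mdx and 62.8 in mdx at 3 months, and 67.4 in MMP-2 null mdx and 65.5 in mdx at 1 month. Vcam1 was 1.23-fold higher in MMP-2 null mdx at 3 months (0.30) and 1.25-fold lower at 1 month (-0.32), where 1 other probe set lay the opposite way. Sele was at the floor. Pericytes and smooth muscle cells are sources of Angpt1 at vessels, and their markers had medians of -0.03 at 3 months and 0.06 at 1 month. Tagln was 1.5-fold, and Kcnj8 and Myh11 each 1.40-fold, lower in MMP-2 null mdx at 3 months, whereas Pdgfrb, a receptor of pericytes, was 1.22-fold higher. In all, 6 of the 10 markers were lower, against 48.1% of all genes, and 4 higher. The summed signal of the 10 was 11410 in MMP-2 null mdx and 11590 in mdx at 3 months, and 12980 in MMP-2 null mdx and 12850 in mdx at 1 month. Lymphatic endothelial markers, 5 of 6 measured, had medians of -0.22 at 3 months and -0.01 at 1 month, and fibroblast markers, all 8 measured, 0.23 and -0.18.

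**Figure D4:**
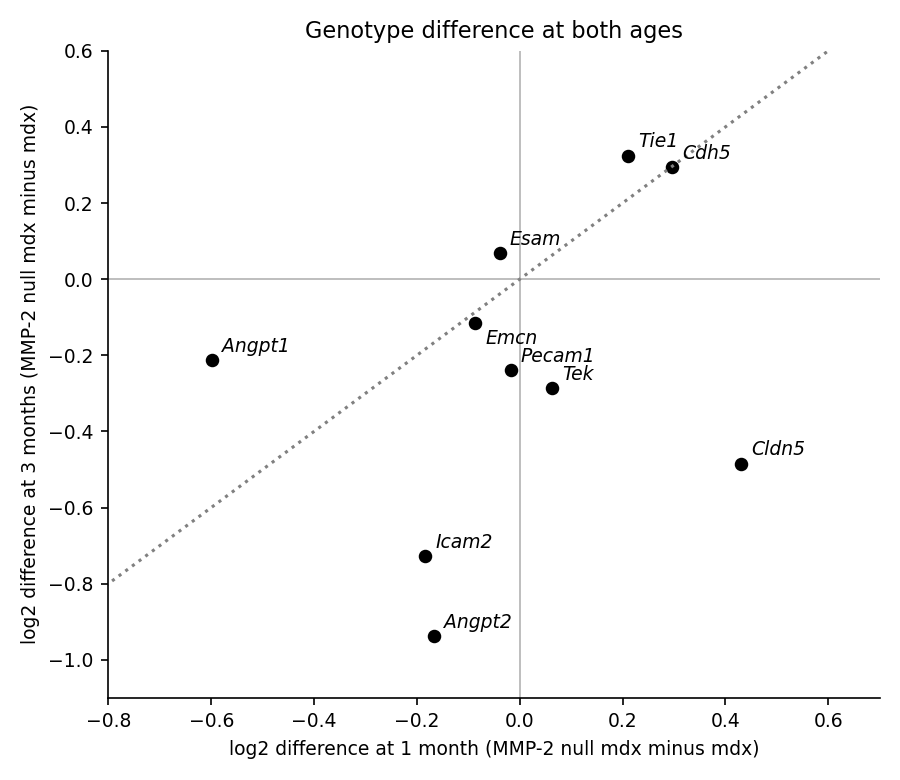
The log2 difference between MMP-2 null mdx and mdx at 3 months (vertical axis) against that at 1 month (horizontal axis) for the 10 genes, where each point is 1 gene in 2 pairs of arrays and the dotted line marks equal differences. Cdh5 lies on the line and Tie1 near it, both higher in MMP-2 null mdx at both ages, whereas Cldn5 lies farthest from it, at 0.43 and -0.49.

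Set side by side, the genotype differences at both ages, which share no array, were alike for some genes and not for others. The difference at 3 months minus that at 1 month was between -0.35 and 0.39 for Angpt1, Tek, Tie1, Pecam1, Cdh5, Esam and Emcn. It was -0.91 for Cldn5, -0.77 for Angpt2 and -0.54 for Icam2. Cldn5 and Angpt2 passed 1.5-fold here (2 of 10), where 7.58% of all genes were lower to that extent and 10.4% higher. With both directions counted, 2 of 10 is near the share of all genes.

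A model with additive terms for genotype and age, fitted to all 12801 genes in limma, leaves 1 residual degree of freedom per gene and takes any difference in the genotype effect between ages as error. With Benjamini-Hochberg adjustment 0 of 12801 genes were called for age (0.00%), and 0 of the 10 genes, whose lowest adjusted p was 0.288. At an unadjusted p under 0.05 it gave 7 of the 10 genes for age (background 13.7%), namely Pecam1, Tek, Emcn, Cdh5, Tie1, Icam2 and Esam. Without scaling it gave 4 of the 10 for age (Cdh5, Tie1 and Esam no longer among them), where 9.93% of all genes were, and with median scaling 5 of the 10 (without Cdh5 and Esam), where 15.4% were. Pecam1 had a log2 difference of -1.29 ± 0.16 (SE, averaged over both genotypes). This SE rests on the difference taken as error and on the variances of all genes. With 1 array per group it holds no spread between replicate arrays. For genotype 0 genes were called (0.00%), and at an unadjusted p under 0.05 it gave 0 of the 10 (background 4.37%), whose lowest adjusted p was 0.982. Without scaling the unadjusted count for genotype was 2 of the 10, Cdh5 and Tie1, where 10.2% of all genes were. With a variance prior that follows signal it was 1, Cdh5, where 4.55% were. A variance prior that follows signal called 1 of the 10 genes for age, Pecam1, with an adjusted p of 0.0384 in limma, and 130 of all 12801 genes (1.02%).

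The profiles of the genes were compared by the root mean square distance of their mean-centred log2 signals over the 4 arrays. Each of the 10 genes was compared with the other 9 alone. Among these, Tie1 and Cdh5 were each other's nearest (distance 0.06), as were Tek and Emcn (0.10). The nearest of the 10 to Pecam1 was Tek (0.17) and to Esam Tie1 (0.13). For Angpt1, Angpt2 and Cldn5 the nearest of the 10 lay at 0.30, and for Icam2 at 0.24. Of 7067 other genes with a mean signal of at least 85.4, Hspb11, Ifi27, Nrep, Hacd1 and Sntb1 lay nearest to the median profile of the 10 genes, at distances of 0.03 to 0.04. With 4 arrays many genes can share such a profile.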

How the data were processed

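Tibialis anterior RNA was measured on 4 arrays, 1 per group, grouped by the sample labels. The deposited values are intensity, MAS5 summaries per probe set made by the authors, and the submitters' processing notes name Affymetrix Expression Console. Tool versions are not given in the sources used here. Columns were not scaled to 1 target.

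Of 45101 probe sets 64 were controls, 34945 had 1 gene symbol in the platform annotation, 932 several and 9160 none here. Signals were quantile scaled with limma 3.58.1 (R 4.3.3), floored at their 50th percentile (17.4) and put on the log2 scale. A gene was its probe set with the highest mean. Genes at or past 1.5-fold and 2-fold were counted beside all genes. The additive model used lmFit and eBayes and was tested on simulated data. Tables and figures were made in Python 3.11.15.

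The genes, lists and thresholds were chosen with earlier results of these data known. Named were the 10 genes, Mmp2, up to 4 genes per list with the largest genotype difference and a signal of at least 85.4 in any array, and the 5 nearest profiles. Further list genes are named where they were at the floor or not measured. Lists were counted, not tested. Alternatives were cyclic loess, median or no scaling, a floor at the 60th or the 40th percentile, a pseudocount of 4.36 in place of the floor, a gene's mean over its probe sets, leaving out _x_at and _s_at probe sets, and a variance prior that follows signal.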

Additional observations from a re-analysis of the deposited data

Results flagged for a closer look

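Cldn5 and Angpt2 differed in opposite directions between groups of the same contrast, and with 1 array per group these differences were not tested. For Cldn5, the genotype difference was -0.49 at 3 months and 0.43 at 1 month, and the age difference was -0.49 in MMP-2 null mdx and 0.42 in mdx, which is the same value of -0.91 on the log2 scale for the gap in either view. Without scaling, the genotype difference of Cldn5 was -0.02 at 3 months and 0.54 at 1 month. For Angpt2, the age difference was -0.14 in MMP-2 null mdx and 0.63 in mdx, a gap of -0.77. Without scaling it was -0.04 in MMP-2 null mdx and 0.47 in mdx. A floor at the 60th percentile brought that in MMP-2 null mdx to 0.00, so that no opposite direction remained. A gap of at least 1.5-fold, whatever the signs, was found for 2 of the 10 genes, both lower. Of all genes 7.58% were lower to that extent and 10.4% higher. With both directions counted, 2 of 10 is near the share of all genes. A share of all genes that differed in opposite directions is not given here. Angpt2 lay near the signal floor in all arrays.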

How the results depend on the processing

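No paired analysis was possible because each group had 1 array, which also leaves no array to leave out. Of 320 single-gene values under 8 alternatives, 10 had the opposite sign to the reported one, 9 of them without scaling. None of the 14 differences past 1.5-fold changed sign under any of the 8, and 96 of their 112 values stayed past 1.5-fold. Some of these values could not change. The 10 genes' brightest probe sets lay above the floor in all arrays, so a floor at the 40th percentile could not alter them. None was _x_at or _s_at, so leaving such probe sets out could not either. Both alternatives are counted in the 320 and the 112, which therefore overstate the stability. A floor at the 60th percentile altered Angpt2 alone. Without scaling, which shifted all genes' median by 0.41 at 3 months and by 0.26 between ages in MMP-2 null mdx, the median genotype difference of the 10 genes at 3 months was 0.24, and the counts at least 1.5-fold higher and lower there were 2 and 0. At 1 month 0 genes were then 1.5-fold lower, as without a floor (pseudocount) and with the mean of all probe sets. With that mean, in which Angpt1 and Angpt2 are averaged with a probe set at the floor, Angpt1 stood at -0.30 at 1 month and 1 gene was 1.5-fold lower at 3 months. Between ages, 4 genes in place of 5 were 1.5-fold lower in MMP-2 null mdx without scaling, with median scaling and with the mean of probe sets, and in mdx with median scaling, without a floor and with that mean. In MMP-2 null mdx, no scaling and median scaling (median of all genes 0.19) each gave 1 gene 1.5-fold higher and 1 gene 2-fold lower at 3 months than at 1 month. In mdx, 0 genes were 1.5-fold higher at 3 months without scaling, with median scaling, without a floor and with the mean of all probe sets. For the additive fit, no scaling and the signal-following prior each called 1 of the 10 genes for age, Pecam1 (limma adjusted p = 0.0338 and 0.0384), where they called 79 of 12872 and 130 of 12801 genes in all. The range of adjusted p of the 10 genes' lowest for age over the other settings was 0.0951 to 0.395. Low signal limits Angpt2, whose highest value was 46.7.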
